A study of Mus musculus with 175 samples.

Results

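The integrin subunit genes described here are Itga4, Itga5, Itga6, Itgav, Itgal, Itgb1, Itgb2 and Itgb7, which encode adhesion receptor chains carried by blood progenitors. They were picked by gene symbol, with earlier results of these data known, and they are 8 of the 49585 mouse features counted. Their reads were compared between megakaryocyte erythroid progenitors (MEPs) and common myeloid progenitors (CMPs) of the mouse fetal liver at embryonic day 14.5. All embryos carried the Runx1 P1-GFP::P2-hCD4/+ reporter, on a background of C57BL/6 crossed with ICR. This reporter makes human CD4 from the P2 promoter of Runx1, a transcription factor gene of blood development. Each progenitor type was sorted into cells without (P2-) and with (P2+) human CD4. One field of the labels spells the genotype Runx1 P2-GFP::P2-hCD4/+, while their protocol text has P1-GFP. All 4 populations came from the Lin- Sca1- cKit+ CD16/32low CD41- CD150+ fraction, and the MEPs were CD34- and the CMPs CD34+. The livers of 2 litters were pooled before the sort, so every population is 1 sample, its cells are not replicates, and no test between populations could be made.

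Integrins are pairs of an α and a β chain that span the cell membrane. They bind matrix proteins or receptors on neighbouring cells, and they hold progenitors in their niche and take part in homing and in migration from vessels. The β1 chain pairs with many α chains. With α4 it forms VLA-4, a receptor for VCAM-1 and fibronectin, with α5 it forms the classical fibronectin receptor, and with α6 it forms a laminin receptor. The αv chain serves receptors for vitronectin and other matrix proteins. The αL and β2 chains form LFA-1, the leukocyte receptor for ICAMs, and α4 with β7 binds MAdCAM-1. Both chains of a pair are needed for it to reach the cell surface. Only RNA was measured here.

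The Runx1 reporter defines the P2 groups, so the promoter windows of members are shown with the letters that blood transcription factors are known to prefer. RefSeq windows on GRCm38.p6, from 250 bases before to 50 after the start, were matched for 5 of the 8 members, and not for Itga6, Itgal and Itgb2. Of these, 4 are printed, 5′ to 3′ on the gene's strand. Itga5 and Itgav were at least 2-fold higher in P2+ MEPs, Itga4 was higher by less than 2-fold and Itgb1 was lower. The Itga4 window was the only one of the 5 with the RUNX letters. A link of the letters to these levels was not tested. Capitals mark matches on either strand to 5 motifs. The RUNX motif was searched as TGTGGT. For GATA factors the letters were AGATAA. For the ETS family they were CGGAAG, and for the form preferred by PU.1 they were GAGGAA. The box bound by KLF factors was searched as CCACCC. No marked match overlapped another.
Itga4: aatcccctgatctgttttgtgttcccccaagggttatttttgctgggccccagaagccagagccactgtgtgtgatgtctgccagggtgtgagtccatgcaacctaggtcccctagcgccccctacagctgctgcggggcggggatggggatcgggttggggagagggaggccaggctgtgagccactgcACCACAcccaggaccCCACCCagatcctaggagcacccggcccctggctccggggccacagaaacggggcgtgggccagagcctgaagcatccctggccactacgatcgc
Itga5: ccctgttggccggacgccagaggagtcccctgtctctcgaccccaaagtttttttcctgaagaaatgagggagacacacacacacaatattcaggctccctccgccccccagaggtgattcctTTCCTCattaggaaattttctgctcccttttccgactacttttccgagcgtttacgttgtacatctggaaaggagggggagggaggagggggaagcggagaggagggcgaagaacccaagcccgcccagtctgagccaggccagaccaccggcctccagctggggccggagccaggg
Itgav: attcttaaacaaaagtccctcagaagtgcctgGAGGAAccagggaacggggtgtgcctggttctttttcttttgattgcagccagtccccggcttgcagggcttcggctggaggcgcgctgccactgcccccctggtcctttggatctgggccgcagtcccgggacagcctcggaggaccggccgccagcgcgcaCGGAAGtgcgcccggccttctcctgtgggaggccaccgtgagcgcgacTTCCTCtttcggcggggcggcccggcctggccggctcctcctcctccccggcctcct
Itgb1: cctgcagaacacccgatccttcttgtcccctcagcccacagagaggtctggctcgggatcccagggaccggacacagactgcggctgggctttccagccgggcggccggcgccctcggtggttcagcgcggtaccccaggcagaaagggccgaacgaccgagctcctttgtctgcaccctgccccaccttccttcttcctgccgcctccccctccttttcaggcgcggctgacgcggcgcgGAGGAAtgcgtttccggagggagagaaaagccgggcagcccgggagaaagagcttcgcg
The windows lie at chr2:79255176-79255475 (+) for Itga4, chr15:103366742-103367041 (-) for Itga5, chr2:83724147-83724446 (+) for Itgav and chr8:128685404-128685703 (+) for Itgb1. Itga4 held 1 RUNX match, read as ACCACA, and 1 KLF box. Itga5 held 1 match to the PU.1-type letters, Itgb1 also held 1, and Itgav held 2 together with 1 ETS match. The window of Itgb7 (56.3% G and C) held 3 KLF boxes and 1 PU.1-type match. None of the 5 windows held the GATA letters. Of 32851 promoter windows of the same length, 16.8% held the RUNX letters, 11.2% the GATA, 16.9% the ETS, 28.3% the PU.1-type and 31.5% the KLF letters. A match describes the letters of the window and not a bound site.

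After filtering, 56 P2- and 47 P2+ MEPs and 27 P2- and 42 P2+ CMPs remained of the 175 cells deposited. Each cell was a library of its own, with 571806 to 2827426 reads, of which 295064 to 1540631 fell on mouse genes. Levels are given as CPM, the summed reads of a gene per 1000000 summed reads on mouse genes, with all cells of a population pooled. Where 4 values follow each other, the MEPs come first and P2- precedes P2+. Intervals are at 95% and cover only the error of counting, as amplified copies of one cDNA are read as separate molecules. The sorted cells were checked against marker genes. The 7 erythroid markers summed to 1274 CPM for P2- and 692.8 CPM for P2+ MEPs, against 487.2 CPM for P2- and 192.1 CPM for P2+ CMPs. One of the 7, the globin gene Hbb-bt, ran the other way, at 9.51, 9.79, 232.2 and 120.6 CPM, and made up much of both CMP sums. The 6 megakaryocytic markers, Itga2b among them, ran the other way, from 46.6 to 398.2, 441.3 and 527.7 CPM, and the 6 granulocyte/monocyte markers from 9.80 to 38.6, 285.9 and 524.8 CPM. The megakaryocytic markers Gp9, Gp1bb and Itga2b did not follow their sum and were highest in P2+ MEPs. Mpo (2.22, 12.7, 216.5 and 431 CPM) and Prtn3 (7.19, 25.2, 67.03 and 90.7 CPM) made up nearly all of the granulocyte/monocyte sum in CMPs, and each of the other 4 genes stayed at or below 2.12 CPM. The progenitor genes Kit, Cd34 and Slamf1 summed to between 301.5 and 869.4 CPM, but they ran differently. Kit stood at 293.3, 262.2, 369.4 and 259.3 CPM. Cd34, whose product separated CMPs from MEPs, stood at 0.033, 13.05, 274.3 and 540.8 CPM. Slamf1, the gene of the gated CD150, stood at 8.23, 97.2, 37.2 and 69.3 CPM. It was read in 9 of 56 P2- MEPs, although these were sorted as CD150+. One P2- CMP carries a subtype label that names MEPs, and results that move without it are given below. The labels give no plate for a cell, and plate differences cannot be examined.

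Itgb1 was the integrin gene read most evenly across the 4 populations. Its gene lies on chromosome 8 from 128685654 to 128733200, plus strand, and encodes the shared β1 chain. The pooled level was 226.9 CPM (95% interval 221.6 to 232.3) for P2- and 187.3 CPM (182.5 to 192.1) for P2+ MEPs, against 196.7 CPM (190.3 to 203.2) for P2- and 188.8 CPM (184.3 to 193.3) for P2+ CMPs. P2- MEPs were thus the highest, and the intervals of the other 3 populations overlapped. Single P2- MEPs ran from 31.5 to 502.9 CPM with a median of 225.2, and single P2+ MEPs from 0 to 629.7 with a median of 179.8. P2- CMPs ran from 34.9 to 462.6 (median 167.4) and P2+ CMPs from 0 to 556.6 (median 148.3). Cells of all 4 populations therefore overlapped over most of their range. A read was found in 56 of 56, 46 of 47, 27 of 27 and 41 of 42 cells.

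**Figure D1:**
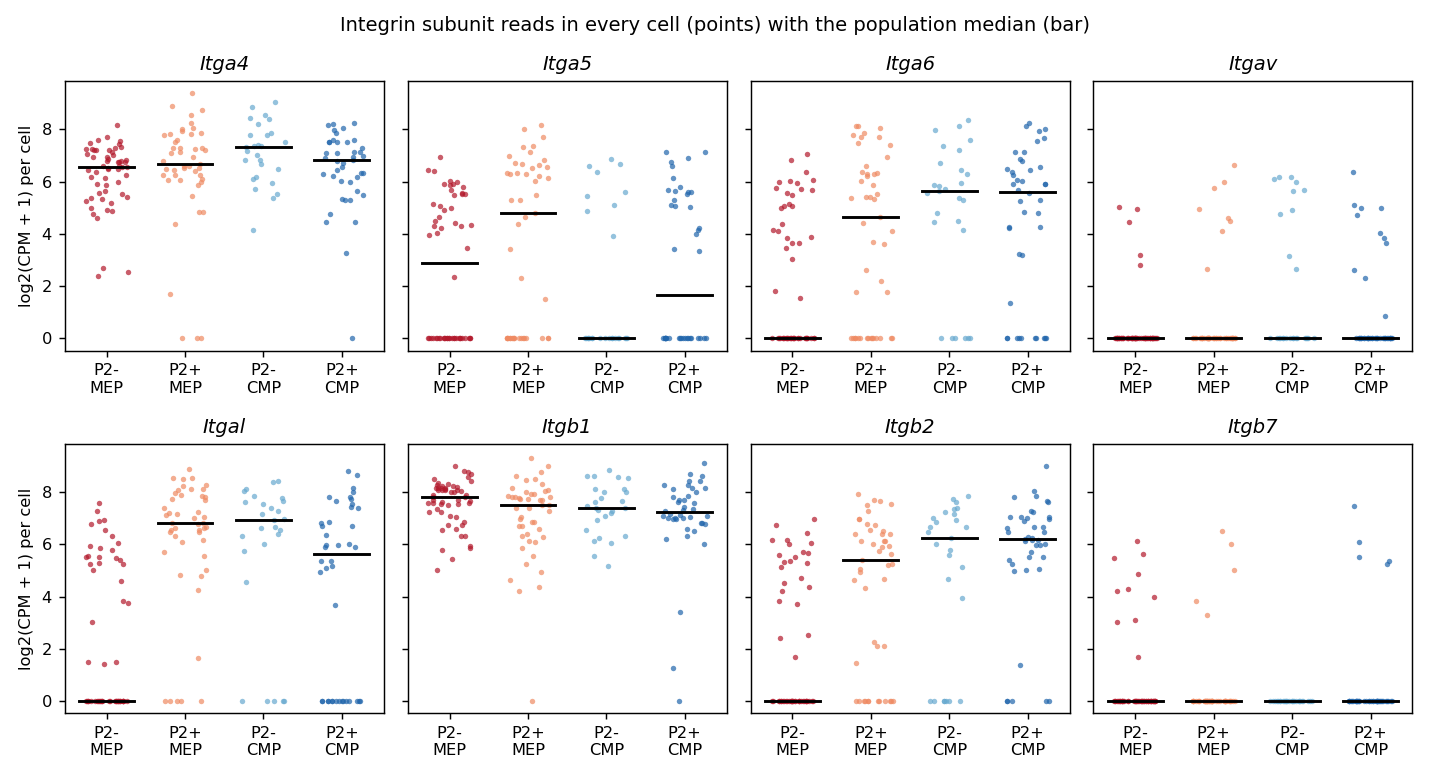
Level of each integrin subunit gene in every cell, as log2(CPM + 1), for the 4 sorted populations; each point is a cell and each bar the median of its population. Itgb1 and Itga4 lie above 0 in nearly all cells of all populations, while the medians of Itga6, Itgal and Itgb2 are at 0 in P2- MEPs and above 0 in the other 3.

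Itga4, which encodes the α4 chain of VLA-4 and of α4β7, was also read in nearly every cell. The gene lies on chromosome 2 from 79255426 to 79333123, plus strand, and 8.04% of its exon bases overlap Cerkl, so that a part of its reads may be lost as ambiguous. Its level was 94.03 CPM (90.6 to 97.5) for P2- and 147.3 CPM (143.1 to 151.6) for P2+ MEPs, against 169.7 CPM (163.8 to 175.7) for P2- and 120.1 CPM (116.6 to 123.7) for P2+ CMPs, and no neighbours in this order had overlapping intervals. The level was thus higher in P2+ than in P2- MEPs, with a log2 ratio of 0.65 (0.58 to 0.72), and lower in P2+ than in P2- CMPs, with a log2 ratio of -0.50 (-0.57 to -0.43). The cells overlapped widely. Median cells held 93.3 and 100.2 CPM in P2- and P2+ MEPs, and 160.1 and 111.6 CPM in P2- and P2+ CMPs. The highest P2+ MEP reached 664.8 CPM and held 11.4% of the Itga4 reads of its population. Without the highest cell of each population the MEP log2 ratio was 0.56. A read was found in 56 of 56, 44 of 47, 27 of 27 and 41 of 42 cells, so the share of cells with a read was high in all populations.

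Itga5, which encodes the α5 chain of the fibronectin receptor, was highest in P2+ MEPs. The gene lies on chromosome 15 from 103344286 to 103366763, minus strand. The level was 22.6 CPM (20.99 to 24.4) for P2- and 64.6 CPM (61.8 to 67.4) for P2+ MEPs, against 22.03 CPM (19.9 to 24.3) for P2- and 29.7 CPM (27.96 to 31.5) for P2+ CMPs. P2- MEPs and P2- CMPs could not be ordered, since their intervals overlapped, and P2+ MEPs stood above all others. P2+ over P2- cells had a log2 ratio of 1.51 (1.39 to 1.64) in MEPs and 0.43 (0.27 to 0.60) in CMPs. About as many MEPs held a read in both reporter states, with 28 of 56 P2- and 27 of 47 P2+ cells after each cell was thinned to 100000 reads on mouse genes. The shares of 50% (36.3 to 63.7) and 57.4% (42.2 to 71.7) had overlapping intervals. Among MEPs with a read, the median level was 33.98 CPM in P2- cells and 78.5 CPM in P2+ cells, and the highest cells reached 120.8 and 287.1 CPM. Cells with a read and cells without one were thus found in every population, and the pooled difference between MEPs lay mostly in the level of the cells that had reads. In CMPs a read was found in 9 of 27 P2- and 18 of 42 P2+ cells after thinning, with medians of 47.8 and 47.3 CPM among all cells with a read.

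Itga6, which encodes the laminin-binding α6 chain, was lower in P2- MEPs than in the other 3 populations, whose intervals overlapped with their neighbours. The gene lies on chromosome 2 from 71745616 to 71858416, plus strand. Its level was 19.7 CPM (18.1 to 21.3) for P2- and 66.7 CPM (63.9 to 69.6) for P2+ MEPs, against 72.1 CPM (68.3 to 76.1) for P2- and 71.6 CPM (68.8 to 74.4) for P2+ CMPs. The median P2- MEP had no read, and the medians of the other populations were 23.9, 48.98 and 48.3 CPM. The log2 ratio was 1.76 (1.63 to 1.90) for P2+ over P2- MEPs and 1.87 (1.73 to 2.02) for P2- CMPs over P2- MEPs, 2 comparisons that share the P2- MEPs. Between CMPs it was -0.01 (-0.11 to 0.09). Without the P2- CMP whose labels conflict, the ratio between CMPs was 0.18 and that between P2- populations 1.68. After thinning, a read was found in 23 of 56 P2- MEPs (41.1%, 28.1 to 55.02), 30 of 47 P2+ MEPs (63.8%, 48.5 to 77.3), 20 of 27 P2- CMPs (74.1%, 53.7 to 88.9) and 31 of 42 P2+ CMPs (73.8%, 58.0 to 86.1). In this measure the interval of P2- MEPs overlapped those of P2+ MEPs and P2- CMPs. In cells with a read the median was 32.3 CPM in P2- MEPs and between 56.96 and 68.3 CPM elsewhere.

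Itgav, which encodes the αv chain, was read in few cells and its levels rest on them. The gene lies on chromosome 2 from 83724397 to 83806916, plus strand, and 5.90% of its exon bases overlap Gm13684. The pooled level was 1.76 CPM (1.32 to 2.30) for P2- and 7.92 CPM (6.97 to 8.96) for P2+ MEPs, against 15.3 CPM (13.6 to 17.2) for P2- and 4.87 CPM (4.18 to 5.64) for P2+ CMPs. P2- CMPs were the highest and P2- MEPs the lowest, and all 4 counting intervals stood apart. P2+ over P2- cells had a log2 ratio of 2.17 (1.74 to 2.62) in MEPs and -1.65 (-1.93 to -1.38) in CMPs. A read was found in 5 of 56, 8 of 47, 10 of 27 and 11 of 42 cells, and the median cell of each population had none. One cell held 44.4% of the reads in P2- and 41.6% in P2+ MEPs, against 26.7% in P2- and 35.6% in P2+ CMPs. The shares of cells after thinning were 14.9% (6.20 to 28.3) of P2+ MEPs and 7.14% (1.98 to 17.3) of P2- MEPs, and 29.6% (13.8 to 50.2) of P2- CMPs and 23.8% (12.1 to 39.5) of P2+ CMPs. The intervals overlapped within both pairs.

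Itgal and Itgb2, which encode both chains of LFA-1, were lower in P2- MEPs than in the other 3 populations. Itgal lies on chromosome 7 from 127296260 to 127335138 and Itgb2 on chromosome 10 from 77530252 to 77565708, both on the plus strand. Itgal stood at 24.1 CPM (22.4 to 25.9) for P2- and 138.6 CPM (134.5 to 142.8) for P2+ MEPs, against 114.9 CPM (110.1 to 119.9) for P2- and 94.99 CPM (91.8 to 98.2) for P2+ CMPs. All 4 intervals were apart, with P2+ MEPs at the top. The log2 ratio of P2+ over P2- MEPs was 2.52 (2.41 to 2.64), or 5.75-fold, and that of P2+ over P2- CMPs was -0.28 (-0.35 to -0.20). Median cells held 0, 111.8, 121.5 and 49.7 CPM. The CMP log2 ratio was -0.54 when every cell had equal weight and -0.17 without the P2- CMP whose labels conflict.

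Itgb2 stood at 17.2 CPM (15.8 to 18.8) for P2- and 55.2 CPM (52.7 to 57.9) for P2+ MEPs, against 81.7 CPM (77.6 to 86.0) for P2- and 93.8 CPM (90.6 to 97.0) for P2+ CMPs. Its order therefore differed from that of Itgal, with P2+ CMPs at the top and P2+ MEPs below both CMP populations, and all 4 intervals were apart. P2+ over P2- cells had a log2 ratio of 1.68 (1.54 to 1.82) in MEPs and 0.20 (0.11 to 0.29) in CMPs. Median cells held 0, 41.1, 75.4 and 73.2 CPM.

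The share of MEPs with a read was lower in P2- cells for both LFA-1 chains, with counting intervals that did not overlap. Such intervals describe these cells and not the spread between embryos. Itgal was read in 22 of 56 P2- MEPs (39.3%, 26.5 to 53.2) and in 41 of 47 P2+ MEPs (87.2%, 74.3 to 95.2) after thinning. Itgb2 was read in 20 of 56 P2- MEPs (35.7%, 23.4 to 49.6) and in 31 of 47 P2+ MEPs (66.0%, 50.7 to 79.1). The cells with a read also held more, with a median of 44.3 CPM of Itgal in P2- MEPs and 129.7 in P2+ MEPs, and of 39.3 and 68.8 CPM of Itgb2. Between CMPs the shares overlapped for Itgal, at 81.5% (61.9 to 93.7) of P2- and 61.9% (45.6 to 76.4) of P2+ cells. They also overlapped for Itgb2, at 74.1% (53.7 to 88.9) and 85.7% (71.5 to 94.6). The directions of the 2 chains were opposite there.

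**Figure D2:**
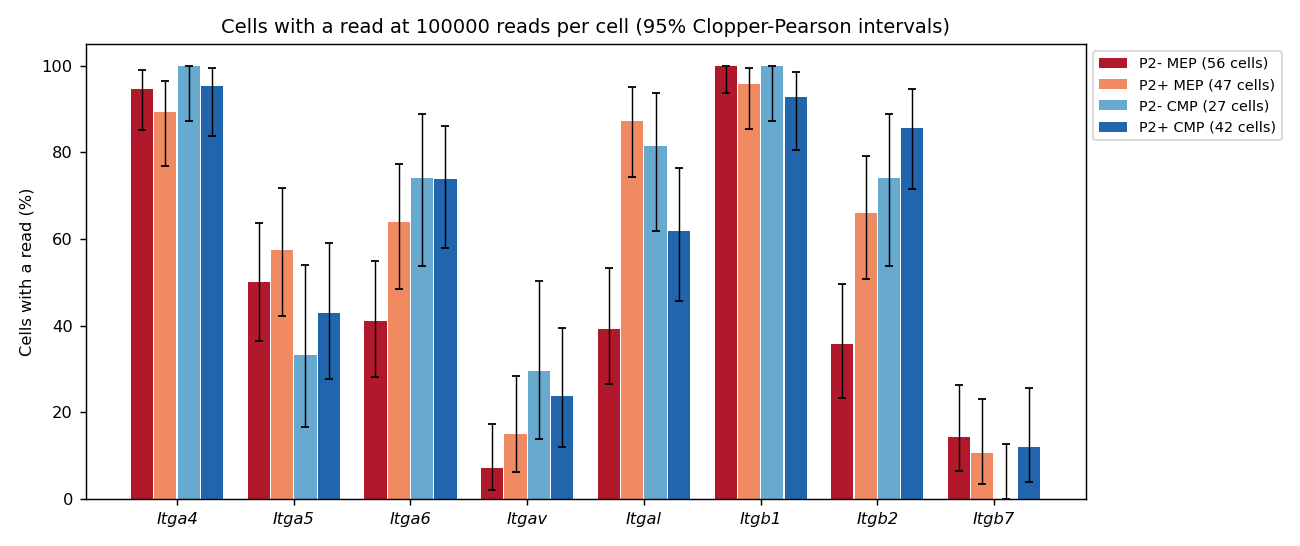
Percent of cells with at least 1 read of each integrin subunit gene after every cell was thinned to 100000 reads on mouse genes, by population, with 95% Clopper-Pearson intervals of counting error as bars. The intervals of P2- and P2+ MEPs are apart for Itgal (39.3% and 87.2%) and Itgb2 (35.7% and 66.0%) and overlap for the other 6 genes.

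Itgb7, which encodes the β7 chain, was the least read of the 3 β genes described here and was listed at 0 reads in P2- CMPs. The gene lies on chromosome 15 from 102215995 to 102231944, minus strand. The level was 4.57 CPM (3.85 to 5.40) in P2- MEPs, 5.61 (4.81 to 6.50) in P2+ MEPs and 11.8 (10.7 to 12.97) in P2+ CMPs, and the 2 MEP populations could not be ordered. No read was found in 27 P2- CMPs, a count that allows a share of up to 11.1% of cells with a read when 3 cells are taken as the limit, and of up to 12.8% by the Clopper-Pearson interval used for the other shares. Set against 3 reads over the P2- CMPs, the level was 72.1-fold higher in P2+ CMPs, and the counting interval of the log2 ratio began at 5.87. Yet the P2+ CMP reads came from 5 of 42 cells, and 1 cell held 59.2% of them. Without the highest cell the bound on the log2 scale went from 6.17 to 4.89. The share of P2+ CMPs with a read was 11.9% (3.98 to 25.6), a range that holds both limits for P2- CMPs. In MEPs a read was found in 10 of 56 P2- and 5 of 47 P2+ cells, and the log2 ratio of 0.29 (-0.04 to 0.62) was -0.35 without the highest cell of each population.

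Between P2+ and P2- MEPs, 5 of the 8 members were at least 2-fold higher in P2+ cells (Itga5, Itga6, Itgav, Itgal and Itgb2), where 15.3% of all 11625 genes compared passed the same fold. None was at least 2-fold lower, against 6.59% of all genes. Itgav is counted there on the reads of 5 P2- and 8 P2+ cells. The median log2 ratio of the members was 1.59, beside 0.05 over all genes. Itgal stood highest, and 5.51% of all genes had a log2 ratio at or above its own. Itgb1 was 1.21-fold lower in P2+ MEPs, with a log2 ratio of -0.28 (-0.33 to -0.23), so the β1 chain did not share the direction of its α partners. The erythroid marker sum was lower and the megakaryocytic sum higher in the same comparison. Single cells spanned 728.9 to 1869 CPM of the erythroid sum in P2- MEPs and 60.8 to 1708 CPM in P2+ MEPs. The megakaryocytic sum spanned 0 to 367.8 and 0 to 1636 CPM, and its markers Pf4, Gp9 and Gp1bb were at 0 in P2- MEPs. The part of these markers in the integrin levels was not tested.

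Between P2+ and P2- CMPs the members went both ways. Itgb7 was the 1 member at least 2-fold higher, where 9.82% of all 11826 genes were, and Itgav the 1 member at least 2-fold lower, where 9.36% were. Both rest on few cells, as given above. The median log2 ratio was -0.04, beside -0.02 over all genes. Itga5 and Itgb2 were higher by less than 2-fold, Itga4 and Itgal lower by less than 2-fold, and the intervals of Itga6 included no difference. Itgb1 had a log2 ratio of -0.06 (-0.12 to -0.001).

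Between P2- CMPs and P2- MEPs, 4 members (Itga6, Itgav, Itgal and Itgb2) were at least 2-fold higher in CMPs. The share over all 11793 genes was 22.6%. Itgb7 was 27.96-fold lower with the P2- CMPs set to 3 reads, and 9.34% of genes were at least 2-fold lower. The counting interval of the Itgb7 log2 ratio ended at -4.49, and its reads came from 10 of 56 P2- MEPs. After thinning, 14.3% (6.38 to 26.2) of P2- MEPs had an Itgb7 read. The interval for P2- CMPs ran up to 12.8%, so the 2 overlapped. The log2 ratios were 3.12 (2.69 to 3.57) for Itgav, 2.25 (2.13 to 2.38) for Itgal, 2.24 (2.10 to 2.39) for Itgb2, and 0.85 (0.78 to 0.93) for Itga4. Itga5 did not follow them, at -0.04 (-0.22 to 0.14). Itgav rests here on reads in 5 P2- MEPs and 10 P2- CMPs. After thinning, its shares of cells with a read were 7.14% (1.98 to 17.3) and 29.6% (13.8 to 50.2), with overlapping intervals. The median of the members was 1.36, beside 0.11 over all genes. In the same comparison the erythroid sum was lower in P2- CMPs and the megakaryocytic sum higher, as given above, and the granulocyte/monocyte sum was higher through Mpo and Prtn3. The last sum spanned 0 to 146.4 CPM in single P2- MEPs and 0 to 1026 CPM in single P2- CMPs. Its markers Elane, Ctsg and Csf1r were at 0 in P2- MEPs and had 2, 2 and 13 reads in P2- CMPs. The part of these markers in the result was not tested.

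Between P2+ CMPs and P2+ MEPs the members also went both ways, with Itgb7 the 1 member at least 2-fold higher in CMPs, against 17% of all 11841 genes, and Itga5 the 1 member at least 2-fold lower, against 10.3%. Itgb7 had a log2 ratio of 1.07 (0.82 to 1.34), which was under 2-fold without the highest cell of each population (0.92), with equal weight for every cell (0.98) and with size factors in place of total reads (0.99). Itga5 had one of -1.12 (-1.23 to -1.01). Itgb2 was higher in P2+ CMPs by 0.76 (0.68 to 0.85) on the log2 scale, and Itgal lower, at -0.55 (-0.61 to -0.48), so the LFA-1 chains moved in opposite directions. Itgb1 did not differ beyond its interval, at 0.01 (-0.04 to 0.06). The log2 ratio of Itga6 was 0.10 (0.02 to 0.18), and 0.01 with size factors. The median was -0.14, beside 0.01 over all genes. The 4 comparisons share populations in pairs and are not independent of each other.

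**Figure D3:**
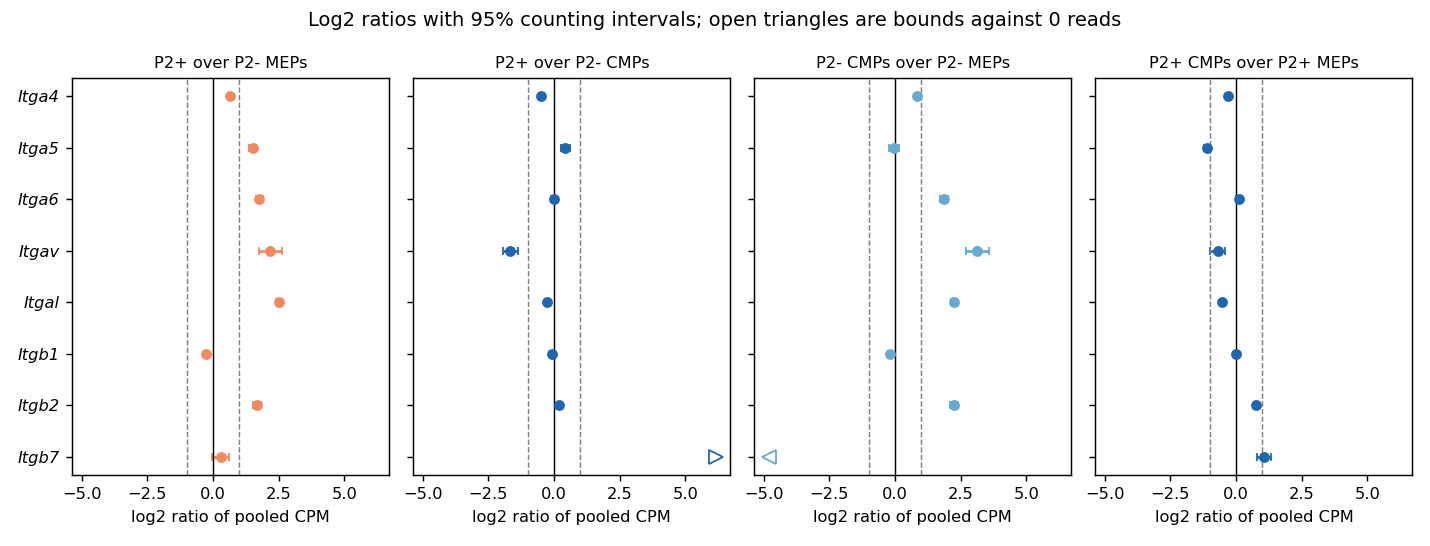
Log2 ratio of pooled CPM of each integrin subunit gene in the 4 comparisons, with 95% counting intervals as bars, dashed lines at 2-fold and open triangles for bounds against a population with 0 reads. In MEPs 5 of 8 genes lie beyond 2-fold on the P2+ side, while between CMPs only Itgav and Itgb7 lie beyond 2-fold.

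Per kilobase of exon, which lets genes be compared with each other, Itgb1 exceeded all of its α partners in every population. Its level was 55.6 CPM per kilobase in P2- and 45.9 in P2+ MEPs, against 48.2 in P2- and 46.3 in P2+ CMPs. The 4 α genes Itga4, Itga5, Itga6 and Itgav summed to 13.7, 31.8, 26.02 and 23 CPM per kilobase in the same order. The ratio of Itgb1 to this sum was therefore 4.07 for P2- and 1.45 for P2+ MEPs, against 1.85 for P2- and 2.01 for P2+ CMPs. It depends on the length used, and with the longest transcript it was 3.04, 1.06, 1.25 and 1.36 in the same order. P2- MEPs thus had the most β1 RNA and the least RNA of these partners.

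The make-up of the α sum differed as well. Itga4 took 49.2% of it in P2- and 33.2% in P2+ MEPs, against 46.7% in P2- and 37.4% in P2+ CMPs. Itga5 took 33.6%, 41.2%, 17.2% and 26.2%, and was thus the largest share in P2+ MEPs. Itga6 took 15.95%, 23.3%, 30.7% and 34.5%, and Itgav between 1.20% and 5.48%. With the length of the longest transcript in place of all exons, Itga6 took the largest share in P2+ MEPs (33.4%, beside 32.6% for Itga4 and 31.6% for Itga5) and in P2+ CMPs (45.7%), so the order of the α genes depends on the length used. Itgb2 stood at 5.65, 18.1, 26.8 and 30.7 CPM per kilobase and Itgal at 3.67, 21.1, 17.5 and 14.5. Itgal was thus above Itgb2 in P2+ MEPs and below it in the other 3 populations. Itgb7 reached 4.26 CPM per kilobase at most, in P2+ CMPs.

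**Figure D4:**
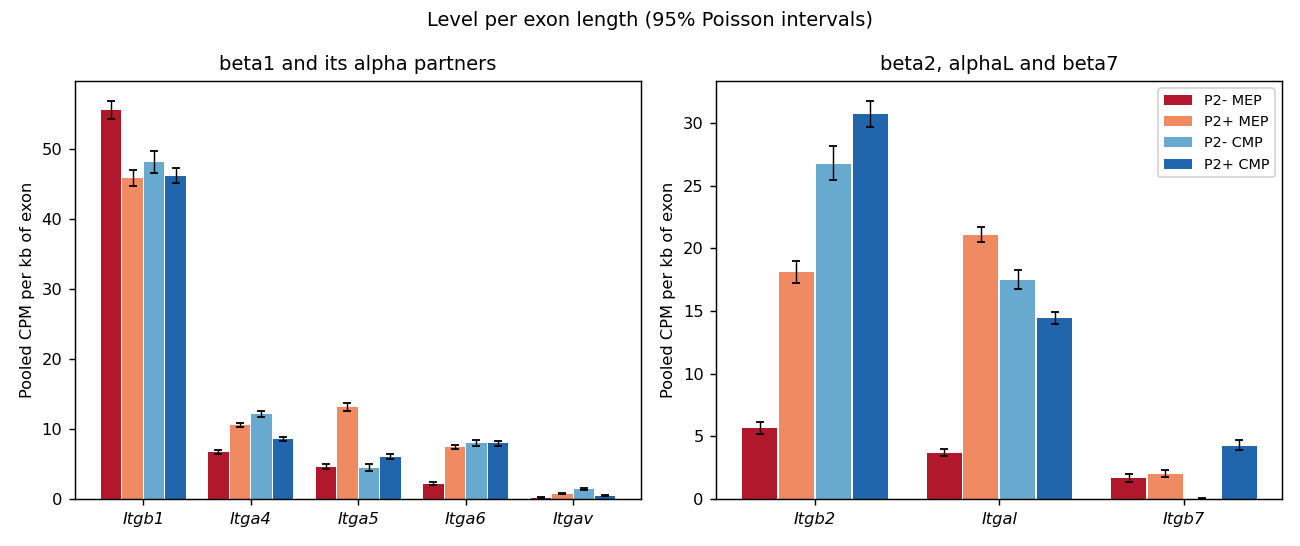
Pooled level of each integrin subunit gene in CPM per kilobase of exon, by population, with 95% Poisson intervals as bars; the left panel holds Itgb1 and the genes of its α partners and the right panel, on its own scale, Itgb2, Itgal and Itgb7. Itgb1 lies between 45.9 and 55.6 in all populations, above each α gene.

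The 2 chains of a receptor were next counted in the same cell, after thinning. Itgal and Itgb2 were both read in 10 of 56 P2- MEPs (17.9%, 8.91 to 30.4), 28 of 47 P2+ MEPs (59.6%, 44.3 to 73.6), 16 of 27 P2- CMPs (59.3%, 38.8 to 77.6) and 24 of 42 P2+ CMPs (57.1%, 40.96 to 72.3). The interval of P2- MEPs lay apart from the other 3, which overlapped. Neither chain was read in 24 P2- MEPs, 3 P2+ MEPs, 1 P2- CMP and 4 P2+ CMPs. Cells with 1 chain only leaned to Itgal in P2+ MEPs (13 with Itgal and 3 with Itgb2) and to Itgb2 in P2+ CMPs (2 with Itgal and 12 with Itgb2).

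Since Itgb1 was read in nearly all cells, its pairs followed the α chain. Itga4 and Itgb1 were both read in 53 of 56, 41 of 47, 27 of 27 and 37 of 42 cells. Itga6 and Itgb1 were both read in 23, 29, 20 and 29 cells, and Itga5 and Itgb1 in 28, 26, 9 and 18. Itgav and Itgb1 were read together in 4, 6, 8 and 9 cells. Itga4 and Itgb7, the MAdCAM-1 receptor chains, were read together in 8 P2- MEPs, 4 P2+ MEPs, no P2- CMP and 5 P2+ CMPs. Of the 8 members, a median of 3 were read per P2- MEP and 5 per cell in each other population, with 2 to 7 in every population.

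**Figure D5:**
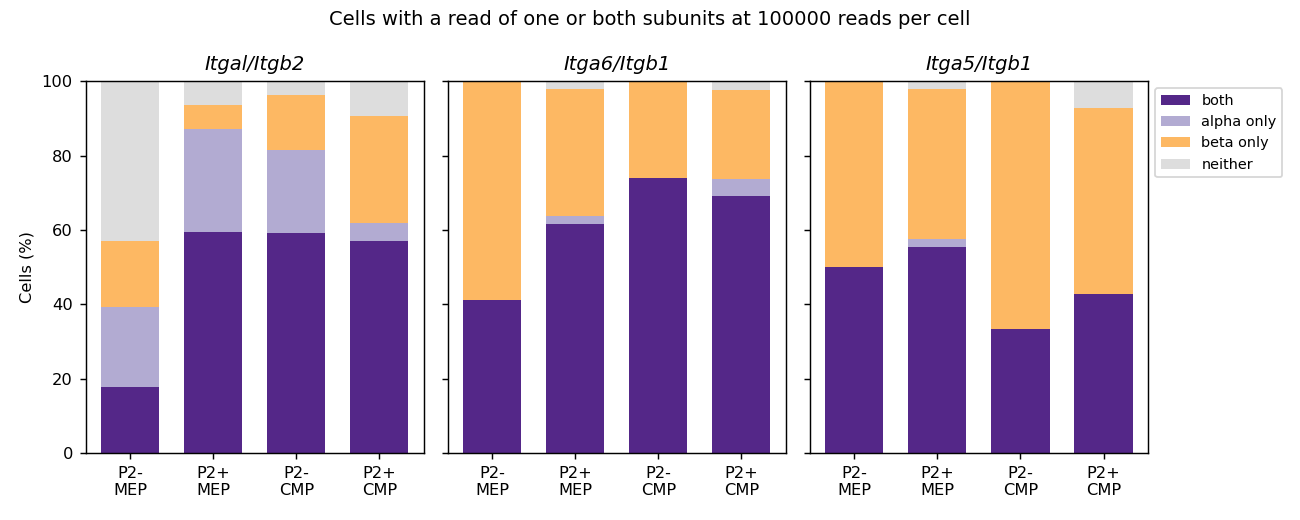
Percent of cells in which both chains, only the α chain, only the β chain or neither was read at 100000 reads per cell, for the pairs Itgal/Itgb2, Itga6/Itgb1 and Itga5/Itgb1 in the 4 populations. Both LFA-1 chains were read in 17.9% of P2- MEPs and in 57.1% to 59.6% of the cells of the other populations.

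Of the 18 other integrin subunit genes, 2 had a mean count of at least 1 per cell. Itga2b, which encodes CD41 and whose product was used to gate the cells, had 33.6 CPM for P2- and 103.3 CPM for P2+ MEPs, against 32.02 CPM for P2- and 39.2 CPM for P2+ CMPs. Its order resembled that of Itga5, with P2+ MEPs at the top, and its log2 ratio was 1.62 (1.52 to 1.72) between MEPs and 0.29 (0.15 to 0.43) between CMPs. Itga9, another β1 partner, had no read in P2- MEPs and 3.36, 10.6 and 15.1 CPM in the other populations. Its reads in P2+ MEPs came from 2 cells, 1 of which held 89.6% of them. Both were at least 2-fold higher in P2+ than in P2- MEPs, Itga9 thus on the reads of 2 cells, and neither was between CMPs. Between P2- CMPs and P2- MEPs, Itga9 was at least 2-fold higher and none was lower. Between P2+ CMPs and P2+ MEPs, Itga9 was at least 2-fold higher, and Itga2b lower. All genes past the same fold had the shares given for the members. Itgb3, the platelet partner of the Itga2b product, was read in 2 P2+ CMPs and in no other cell. Itga3, Itgad, Itgax and Itgb8 had no read in any population. Itgam, the α chain of Mac-1, had 2.29 CPM in P2- CMPs, 1.29 in P2+ CMPs and no read in MEPs, and 68.7% of its exon bases overlap Gm49368.

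Of 24 genes that activate integrins or link them to the cytoskeleton, 18 could be compared in MEPs and 19 in the other comparisons. In MEPs 5 were at least 2-fold higher in P2+ cells and none lower, with a median log2 ratio of 0.85. The shares and medians over all genes are those given for the members. Zyx, a focal adhesion protein, had the largest ratio, at 42.8 CPM in P2- and 223.9 CPM in P2+ MEPs and a log2 ratio of 2.39 (2.30 to 2.47). Parvg, the parvin of blood cells, followed with 17.9 and 53.6 CPM, and Tln2, Rap1b and Vcl were the others. Tln2 was read in 4 P2- and 5 P2+ MEPs only. Rap1b, a GTPase that switches integrins on, had a log2 ratio of 1.39 (1.34 to 1.44). Vcl stood close to the 2-fold limit at 1.01, and 25.5% of its exon bases overlap Ap3m1. Tln1 and Fermt3, the talin and kindlin that bind β tails in blood cells, lay just under 2-fold, at 0.94 (0.90 to 0.98) and 0.96 (0.92 to 0.99). With size factors, Fermt3 passed 2-fold and 6 of these genes were higher. In P2+ MEPs their levels were 513.1 and 570.3 CPM.

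Between CMPs none of these genes was at least 2-fold higher and 1 was lower, the kinase gene Src, with 14.5 CPM in P2- and 3.63 CPM in P2+ cells, and the median log2 ratio was 0.14. Src was read in 5 cells of each CMP population, and 1 cell held 37.4% of its reads in P2- CMPs, so that its ratios rest on few cells. Between P2- CMPs and P2- MEPs 7 were at least 2-fold higher (Src, Parvg, Zyx, Rasgrp2, Pxn, Vcl and Crk), and Parvb was lower, with a median of 0.84. Crk and Vcl stood at the limit, with log2 ratios of 1.002 and 1.021, and with size factors both fell under it and 5 were higher. Between P2+ CMPs and P2+ MEPs Parvg and Src were at least 2-fold higher and Parvb lower, with a median of -0.19. With size factors 3 genes were lower, Parvb, Rap1a and Vcl. Parvg was thus highest in P2+ CMPs, at 154.2 CPM. Parvb had 10.8 CPM in P2- and 12.3 CPM in P2+ MEPs, which could not be ordered, beside 4.85 and 2.92 CPM in P2- and P2+ CMPs, and 1 cell held 40.3% of its reads in P2+ MEPs. Ilk, the kinase-like partner of the parvins, had 1 read in P2- CMPs and none elsewhere, and 89.7% of its exon bases overlap other genes, so reads of it may be lost as ambiguous.

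Of 13 ligands and counter-receptors, 6 could be compared in MEPs and 8 in the others. For this list too, the shares of all genes past 2-fold are those given for the members. Icam1, F11r and Jam3 were at least 2-fold higher in P2+ than in P2- MEPs. These calls rest on few cells, as Icam1 was read in 1 P2- and 3 P2+ MEPs, F11r in 1 and 4, and Jam3 in 3 and 11. Lama5 was at least 2-fold lower, but it had 13 reads, all in 1 P2- MEP, and none in P2+ MEPs. It was compared there only because the minimum of 1 read per cell is taken over all 172 cells. Icam1, a ligand of LFA-1, was read at 0.784, 5.95, 10.6 and 15.3 CPM, with 11.7% of its exon bases overlapping Gm47079. Icam2, another LFA-1 ligand, was more abundant, at 125.5, 198.5, 145.4 and 88.9 CPM. Its lowest level was in P2+ CMPs, where that of Itgal was in P2- MEPs. Between CMPs Lama5 was at least 2-fold higher in P2+ cells, with reads in 1 P2- and 7 P2+ cells. Spp1 was at least 2-fold lower in P2+ CMPs, at a log2 ratio of -1.665 (-2.10 to -1.24). All Spp1 reads lay in 1 P2- CMP (120 reads) and 1 P2+ CMP (75 reads), so that its ratio sets 1 cell against 1 cell. In both comparisons of CMPs with MEPs 6 genes were at least 2-fold higher in CMPs, against 22.6% and 17% of all genes. Icam1, Fn1, Spp1, F11r and Jam3 were so in both, with Tgfb1 between P2- and Lama5 between P2+ populations. Icam2 was at least 2-fold lower in P2+ CMPs, against 10.3% of all genes. Some of these calls rest on few cells. Icam1, Fn1 and F11r were read in 4, 6 and 8 of 27 P2- CMPs, and in 15, 14 and 15 of 42 P2+ CMPs. Fn1, the fibronectin gene and thus the ligand of α4β1 and α5β1, had 1 and 3 reads in P2- and P2+ MEPs, and 24.8 and 21.95 CPM in P2- and P2+ CMPs. Vcam1, the other ligand of VLA-4, had 1 to 3 reads per population, and Madcam1, Vtn and Lama4 had none. The median log2 ratios of this list were 1.604, 0.02, 3.89 and 1.80 in the order of the 4 comparisons, with genes at 0 reads set to their bound. Those over all genes were 0.05, -0.02, 0.11 and 0.01.

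Cells other than blood progenitors carry several of these integrins, so their markers were read in the same libraries. The macrophage list of 6 genes summed to between 0.055 and 0.109 CPM, and Adgre1, C1qa, C1qb and C1qc were at 0 in all populations. The endothelial list of 4 genes summed to 0.098, 1.43, 1.85 and 3.88 CPM, and the lymphoid list to 0, 0, 3.22 and 0 CPM. The hepatocyte list summed to between 10.3 and 24.7 CPM. The median cell of every population held no read of any of these 4 lists.

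For the members read in at least 25% of cells, no other gene closely followed them over single cells. Itgav and Itgb7 were read in fewer cells and were not examined in this way. Over the 172 cells, among 9238 genes read in at least 25% of them, the highest Spearman rho with Itgb2 was 0.45, for Rin3, followed by 0.43 for Rn18s-rs5 and 0.42 for Elmo1. For Itga6 the 3 genes were Plek, Emilin1 and Sh3bgrl3 (0.40, 0.39 and 0.38), and for Itgal Ncoa3, Pdcd4 and Adgrg1 (0.37, 0.36 and 0.36). For Itga4 they were Kcnq1ot1, Muc13 and Slamf1 (0.31, 0.29 and 0.29), and for Itga5 Stard4, 6030458C11Rik and Nmnat1, all at 0.26. The highest for Itgb1 were Nme1 and Fam207a (0.28 and 0.26). These values pool the cells of 4 populations that differ in level and depth, and correlations this weak in sparse counts are no finding. Between members the highest rho was 0.26, for the LFA-1 chains Itgal and Itgb2, and within populations their rho was 0.17, 0.04, 0.06 and 0.27.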

How the data were processed

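Single cells of pooled E14.5 fetal livers were sorted into plates. Their cDNA was sequenced after a Smart-Seq2 type of preparation, with spike-in RNA (ERCC) and without molecular identifiers. The authors trimmed the reads (Trimmomatic 0.36), aligned them to GRCm38 and the ERCC sequences (STAR 2.4.2a) and counted them on GENCODE exons, ignoring strand (HTSeq 0.6.1p1). The deposited counts are raw reads per gene and cell, and the deposited share of unmapped reads is a percent per cell. CMPs labelled low and high were read as P2- and P2+.

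Cells with under 250000 reads, over 25% unmapped reads or over 15% of counts on ERCC features were removed, as in the methods of the study, which left 172 of 175. Tallies that belong to no gene stayed out of all totals: among reads that were ambiguous, on no feature or on mouse genes, 25.9% were ambiguous and 7.49% hit no feature. CPM had exact Poisson intervals. Log2 ratios had no pseudocount and exact conditional binomial intervals. Where a population had 0 reads, 3 reads for the population were used. The result is called a bound, though its counting interval allows a smaller difference. Counts of genes past 2-fold took genes averaging at least 1 read per cell over all 172 cells. Shares of cells followed thinning to 100000 reads, which left out 0 cells, with Clopper-Pearson intervals. Gene positions, exon lengths and overlaps came from GENCODE vM21 on GRCm38, a later release than the one counted on. The code was tested on simulated data. Python 3.11.15, numpy 2.4.6, scipy 1.17.1, pandas 2.3.3, matplotlib 3.10.9 and R 4.3.3 with DESeq2 1.42.0 (size factors, as an alternative) were used.

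The named genes are the 8 members, genes of the pathway and cell type lists, and for each member read in at least 25% of cells the 3 genes of highest Spearman rho. The members and lists were chosen with earlier results of these data known. The alternatives weighted all cells equally, scaled by DESeq2 size factors, used every deposited cell, dropped the highest cell or the cell with a conflicting label, left mitochondrial genes and Rn18s-rs5 out of the denominator, or changed the fold, the filter, the thinning depth, the minimum of reads or the transcript length. Some genes that these rules name are not reported here.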

Additional observations from a re-analysis of the deposited data

Results flagged for a closer look

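Itga4, Itgav and Itgal were higher in P2+ than in P2- MEPs and lower in P2+ than in P2- CMPs, and this opposite direction in the 2 progenitor types is what drew attention to them. Itga4 had a log2 ratio of P2+ over P2- of 0.65 in MEPs and -0.50 in CMPs. Itgav had 2.17 in MEPs and -1.65 in CMPs, with a read in 5 P2- and 8 P2+ MEPs and in 10 P2- and 11 P2+ CMPs. Itgal had 2.52 in MEPs and -0.28 in CMPs. With 1 sample per population the difference between MEPs and CMPs was not tested. All 6 directions were the same under each of the alternatives for the log2 ratios.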

How the results depend on the processing

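No paired analysis was possible because the labels give no replicate numbers and each population is 1 sample. No log2 ratio that was called 2-fold changed sign. Of the log2 ratios under the alternatives, 145 stayed within the interval of the reported value and 31 moved beyond it. The count of members at least 2-fold higher in P2+ MEPs kept within 1.5 times of 5 in all alternatives. Requiring reads in at least 25% of all cells, which removes Itgav and Itgb7, left 0 members higher and 0 lower between P2+ and P2- CMPs, 0 lower between P2- CMPs and P2- MEPs, and 0 higher between P2+ CMPs and P2+ MEPs, each in place of 1. In the last comparison the count higher was also 0 with equal weight for every cell, 0 with DESeq2 size factors and 0 without the highest cell of each population, and at 1.5-fold it was 2 higher and 2 lower. Size factors shifted the ratios by between -0.09 and 0.06 on the log2 scale. Their effect on the counts of the pathway lists was examined after seeing the data. Itgb7 in MEPs went from 0.29 to -0.07 with equal weight, its CMP bound from 6.17 to 4.89 without the highest cell, and Itgav in P2+ CMPs over P2+ MEPs from -0.70 to -0.14 with equal weight; the cause was not tested. With at least 5 reads required, 16 of 32 numbers of cells with a read left their interval. Levels per kilobase left their interval in 24 of 32 cases with the longest transcript. With 1 sample per population the spread between embryos is unknown, and all intervals cover counting error only.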
